A study of Amphimedon queenslandica with 124 samples.

Results

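The 3 adults and 3 juveniles of the sponge Amphimedon queenslandica among the deep libraries numbered 101 to 124 were compared over all genes. They are 6 of the 124 single individuals of a developmental time-course and were chosen by stage and by their embryo numbers in the labels. The adults carry the numbers 108, 116 and 124 and are called adult 1, adult 2 and adult 3. The juveniles carry the numbers 107, 115 and 123 and are called juvenile 1, juvenile 2 and juvenile 3. The series covers 14 labelled stages, and the libraries numbered 101 to 124 hold the stages from settlement to adult. The other 2 juveniles of the series, numbered 1 to 100, had 38188 and 21359 counts and entered only the checks named below. The assay was CEL-seq, in which RNA of each animal is barcoded and its polyadenylated 3' ends are read. The labels name no treatment, genotype or strain. They place the collection of embryos, larvae and post-larvae at Heron Island in the Great Barrier Reef, with staging by morphology, and do not speak of adults there.

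A sponge of this species turns from a settled larva into a juvenile when its first canals, chambers of flagellated collar cells and outflow opening form, so that it can pump and filter water. The adult is a larger animal of the same body plan that also makes gametes and broods its embryos in chambers inside its own body. The labels do not say how old or how large the adults were, which piece of them was taken, or whether they held eggs, sperm or brooded embryos. The gene models of the deposited table carry identifiers only, and 0 of 36868 matched the reference table of gene names, so no marker of a cell type could be checked and no gene is given a role.

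The 6 libraries were of similar depth. Total counts were 1829945, 1061164 and 1087643 in adults 1, 2 and 3, and 1363196, 1690872 and 1414350 in juveniles 1, 2 and 3. With each library thinned to 1061164 counts, 15885, 15988 and 16968 gene models had at least 1 count in the adults, against 15374, 15082 and 15418 in the juveniles. Every adult thus lay above every juvenile, by a mean of 989 gene models. An exact two-sided permutation test gave p = 0.1, the smallest that 3 against 3 animals allow. Without thinning the 2 stages overlapped, and the exact permutation p was 0.4. The 10 most abundant gene models took 12.3%, 13.0% and 13.6% of the counts of the adults, and 16.7%, 11.0% and 15.8% of those of the juveniles.

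Of 8812 gene models tested, 333 were called between adults and juveniles (3.78%), with 230 higher in adults (2.61%) and 103 lower (1.17%). The test was edgeR's quasi-likelihood test with a threshold of 0.05 on the p adjusted by Benjamini and Hochberg. More genes were thus higher in adults than lower. The median log2 fold change of adults over juveniles was 4.87 for the genes higher in adults, or 4.69 with the 26 gene models that had no juvenile count set at the bound that 3 counts over the juveniles give. For the genes lower in adults it was -3.09, also with the 2 gene models that had no adult count set at their bound. With the same bounds, 201 of the 230 were at least 8-fold higher, against 53 of the 103 at least 8-fold lower. All 230 and all 103 had no overlap between the 3 adults and the 3 juveniles, which also held, in each direction, for 11.7% and 12.0% of all gene models tested. Fold sizes of the sets depend on the filter given below, through which 185 of the 230 passed by their adult level alone. In bulk libraries such as these, fewer cells of a type and less RNA per cell cannot be told apart.

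Each of the sets made up a few percent of the counts of the stage in which it was high. The 230 gene models held 4.68%, 3.75% and 4.46% of the counts of adults 1, 2 and 3, and 0.283%, 0.471% and 0.283% of those of juveniles 1, 2 and 3. The 103 gene models held 0.439%, 0.418% and 0.499% of the counts of the adults, and 2.66%, 3.08% and 2.90% of those of the juveniles. These shares describe genes that the same libraries selected. A gene was tested when at least 3 of the 6 libraries passed about 7.2 CPM, the count scaled to a library total of 1000000. Of the 230, 185 passed this minimum in all adults but not in all juveniles, and 61 of the 103 passed it in all juveniles but not in all adults.

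The number of calls depended on which animals were in the fit. Without adult 2, 541 gene models were called (353 higher and 188 lower), without adult 3, 206 (152 and 54), and without adult 1, 223 (177 and 46). Without juvenile 1, 2 or 3 the numbers were 83 (60 and 23), 58 (38 and 20) and 74 (51 and 23). Across these fits 29 of the 230 and 13 of the 103 were called each time.

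**Figure D1:**
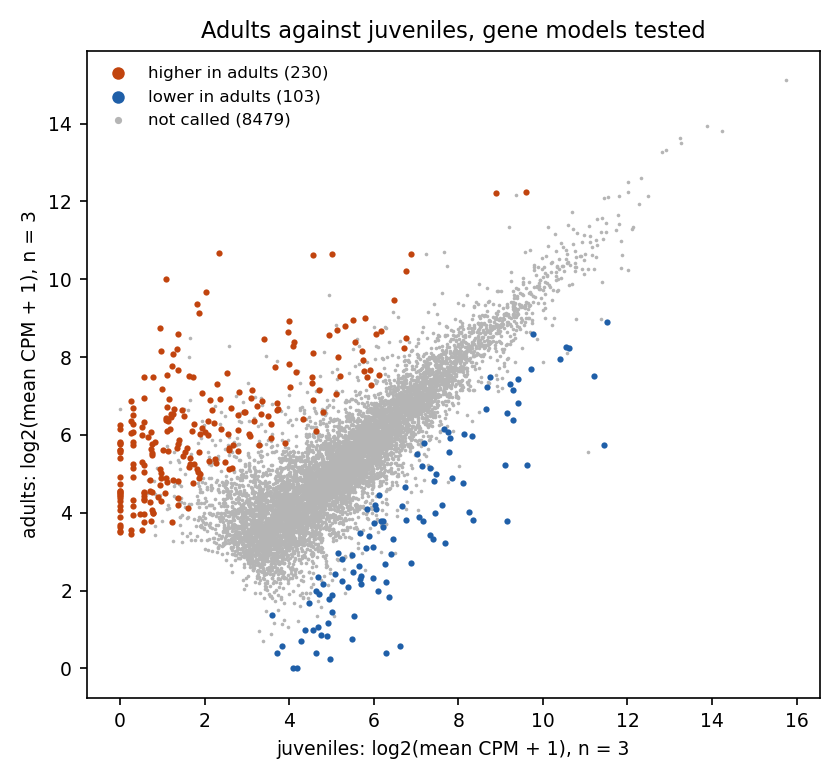
Each point is 1 of 8812 gene models, with its mean level in the 3 adults on the y axis and in the 3 juveniles on the x axis, both as log2(mean CPM + 1). The 230 gene models higher in adults include a column at 0 on the juvenile axis, whereas only 2 of the 103 lower gene models lie at 0 on the adult axis.

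The genes lower in adults stood higher in each later phase up to the juvenile, whereas the mean of those higher in adults stayed between 1.16 and 2.09 before the adult. Levels here are means of log2(CPM + 1) over the gene models of a group, in libraries of at least 100000 counts, and settlement and later phases use only the libraries numbered 101 to 124. The 230 gene models stood at 6.07 ± 0.20 in adults (SD, n = 3) and at 1.98 ± 0.08 in juveniles (n = 3). In libraries that played no part in their selection they stood at 2.09 ± 0.37 at cleavage (n = 7), 1.16 ± 0.19 in free-swimming larvae (n = 13) and 1.92 ± 0.08 at chamber- and tent-pole-formation (n = 6). No phase before the adult had a mean above 2.09. Since most of these genes passed the filter by their adult level alone, a low level elsewhere is in part set by how they were chosen. All gene models tested stood at 3.89 ± 0.42 at cleavage, 3.81 ± 0.26 in larvae and 4.91 ± 0.06 at chamber- and tent-pole-formation. Those were not matched to the 230 by level or by how they passed the filter.

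The 103 gene models lower in adults stood at 3.63 ± 0.03 in adults (n = 3) and 6.69 ± 0.12 in juveniles (n = 3). They were at 3.19 ± 0.63 at cleavage (n = 7), 3.58 ± 0.21 in free-swimming larvae (n = 13), then 4.32 ± 0.02 at settlement (n = 3), 4.83 ± 0.18 at mat-formation (n = 9) and 5.52 ± 0.22 at chamber- and tent-pole-formation (n = 6). Their adult level was thus close to that of brooded embryos and larvae. Of the 103, 61 passed the filter by their juvenile level alone. The low level in adults and the high level in juveniles are in part set by how these genes were chosen. Among all gene models tested the mean was 4.43 ± 0.11 at settlement, 4.91 ± 0.06 at chamber- and tent-pole-formation, 5.10 ± 0.02 in juveniles and 5.15 ± 0.04 in adults. Embryo and larval libraries are all numbered 1 to 100, so that against them stage and number set cannot be told apart. From settlement onwards the set is the same.

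**Figure D2:**
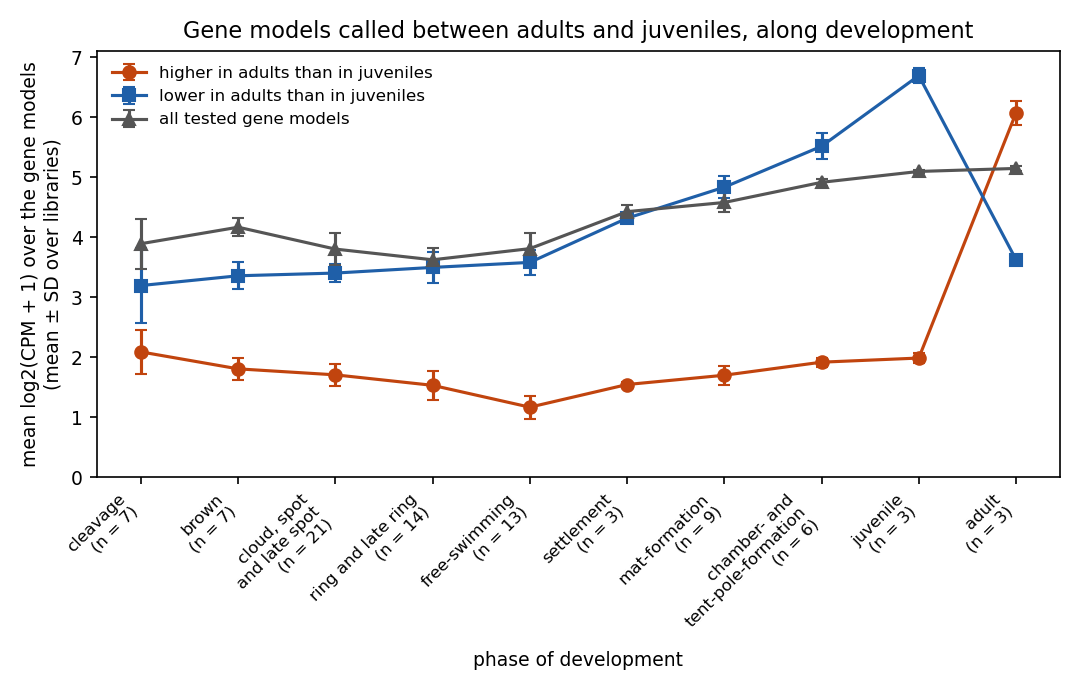
The y axis gives the mean log2(CPM + 1) over the 230 gene models higher in adults (circles), the 103 lower in adults (squares) and all 8812 tested (triangles), as mean ± SD over the libraries of each phase on the x axis. The first group stays between 1.16 and 2.09 until the adult, at 6.07, and the second is at 3.63 in adults, against 6.69 in juveniles.

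A gene model was taken as on in a stage when each of its 3 libraries had at least 10 counts, and as off when none had any. By this rule 29 gene models were on only in adults (0.125% of 23251 with a count in the 6 libraries) and 2 were on only in juveniles (0.0086%). The same rule between neighbouring earlier stages, added after the data were seen, found 3 gene models on in juveniles and off at tent-pole-formation, and 0 the other way. Between tent-pole-formation and chamber-formation it found 0 in each direction. The shallowest library was 1061164 counts in the first pair of stages, 812327 in the second and 548828 in the third. These comparisons share the juvenile and tent-pole libraries, and the difference in list length was not tested.

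The 29 gene models on only in adults were of moderate level. Their mean in adults ran from 10.3 to 336 CPM with a median of 25.6 CPM. Together they had 1168, 839 and 1898 CPM in adults 1, 2 and 3, against no count in any of the 3 juveniles. A gene with no count in the 3 juveniles could have been at up to 0.671 CPM there, taking 3 counts over the group as the limit. Against that limit the 29 were at least 14.6-fold to at least 411-fold higher in adults, with a median of at least 34.4-fold. Such limits cover counting error only.

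Near the threshold, 8 of the 29 had 10 to 12 counts in their lowest adult, and 3 further gene models would have been listed at 8 or 9 counts. With up to 1 count allowed in each juvenile, 25 more would have joined. Of the 29, 26 passed the filter and 24 were called, but the list and the test use the same libraries. Leaving out 1 library loosens the rule, and the list then held 57 gene models without adult 2, 50 without juvenile 1 and 35 to 43 without each of the others. The 2 shallow juveniles held 12 counts of the 29 gene models among 59547 counts. They came from 2 gene models. One, Aqu2.1.09988_001, named for this after its values were seen, had 6.56, 11.3 and 46.9 CPM in adults 1, 2 and 3. It had 10 counts in the shallow juvenile of 38188 counts, or 262 CPM with an exact 95% Poisson interval of 126 to 482 CPM for counting error. In that shallow juvenile it was therefore above every adult, and off in juveniles holds for it only among the deep libraries. The second had 2 counts, and the other 27 gene models had no count in any of the 5 juveniles.

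**Figure D3:**
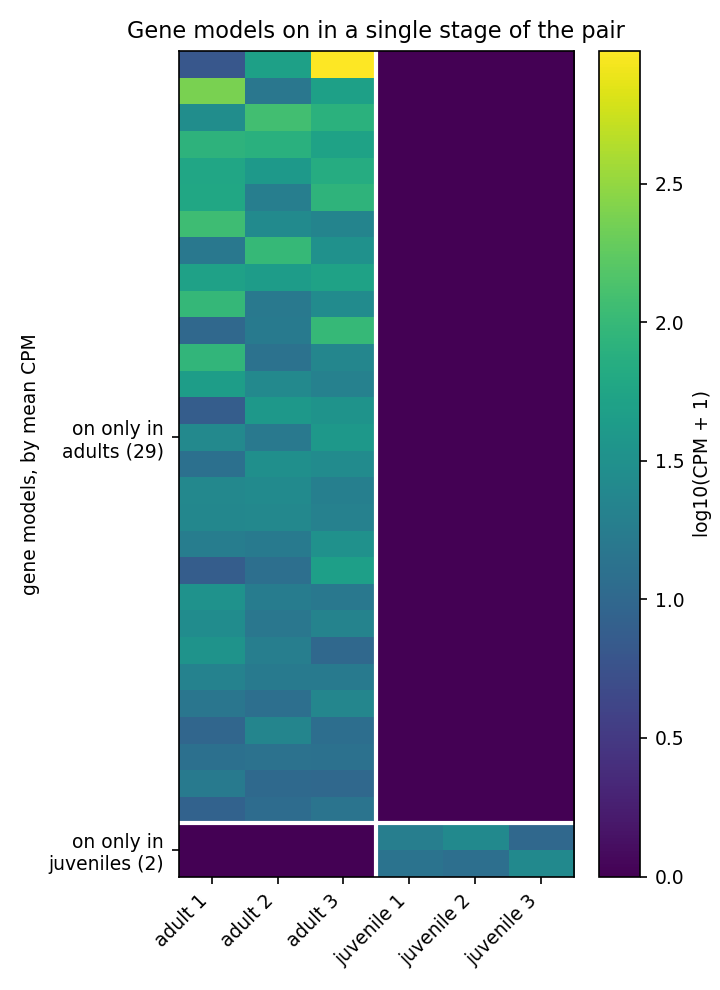
Rows are the 29 gene models on only in adults, above the white line, and the 2 on only in juveniles, below it, each set ordered by mean level; columns are the 6 individuals and colour is log10(CPM + 1). The adult columns differ within many rows, most of all in the top row, where adult 3 reached 953 CPM, adult 2 had 49.0 CPM and adult 1 had 5.46 CPM.

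Of the called gene models on only in adults, Aqu2.1.23760_001 and Aqu2.1.21155_001 had the highest adult means. Aqu2.1.23760_001 had 83.6, 76.3 and 50.6 CPM in adults 1, 2 and 3 (153, 81 and 55 counts) and no count in juveniles 1, 2 and 3. The 3 adults lay within 1.65-fold of each other. It was at least 108-fold higher in adults (adjusted p = 0.00609, edgeR) and was called in all 10 alternatives run, with adjusted p between 4.07e-12 and 0.0336. Outside these stages it was highest at cleavage, with 8.81 ± 10.6 CPM (SD, n = 7), and stood at 0.304 ± 0.744 CPM at chamber- and tent-pole-formation (n = 6).

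Aqu2.1.21155_001 had 27.9, 118 and 80.0 CPM in adults 1, 2 and 3 (51, 125 and 87 counts) and again no count in the juveniles. Adult 2 was 4.23-fold above adult 1. The gene was at least 98.5-fold higher in adults (adjusted p = 0.0146, edgeR), with 3.73 ± 4.05 CPM at cleavage (n = 7) and at most 0.565 CPM as the mean of any other phase before the juvenile. Its call was lost without any 1 of the 3 juveniles, and held in the other 7 of 10 alternatives, with adjusted p between 4.67e-12 and 0.0586 over all 10.

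The 2 gene models on only in juveniles were both of low level and both present earlier in metamorphosis. Aqu2.1.29362_001 had no count in the adults and 17.6, 24.8 and 9.19 CPM in juveniles 1, 2 and 3 (24, 42 and 13 counts), and was at least 23.4-fold lower in adults (adjusted p = 0.0269, edgeR). Its level was 23.6 ± 15.1 CPM in free-swimming larvae (n = 13), then 25.7 ± 15.1 CPM at settlement (n = 3), 5.15 ± 5.74 CPM at mat-formation (n = 9) and 18.2 ± 15.9 CPM at chamber- and tent-pole-formation (n = 6). Cleavage embryos had 1.32 ± 3.49 CPM (n = 7). It was thus seen in larvae and post-larvae, with a lower mean at mat-formation, and not detected in adults.

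Aqu2.1.30840_001 had no count in the adults and 12.5, 11.2 and 24.7 CPM in juveniles 1, 2 and 3 (17, 19 and 35 counts), and was at least 21.1-fold lower in adults (adjusted p = 0.0269, edgeR). It had no count in the larval and settlement libraries used here, 11.4 ± 7.11 CPM at mat-formation (n = 9) and 9.74 ± 7.69 CPM at chamber- and tent-pole-formation (n = 6). Cleavage embryos had 9.43 ± 10.1 CPM (n = 7). Both calls were lost without adult 1, without adult 3 and without any 1 of the juveniles, with adjusted p up to 0.129 and 0.133. A gene with no count in the 3 adults could have been at up to 0.754 CPM. The list of 2 held 7 gene models without adult 2, 5 without adult 3, and 4, 8 and 5 without juveniles 1, 2 and 3, so that it is set largely by single libraries.

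Outside adults and juveniles, the gene models on only in adults had their highest summed level in cleaving embryos. Of the 29, 18 (62.1%) had their highest mean level at cleavage among 8 phases. That share was 9.96% among the 6493 gene models with at least 10 counts in each adult. It was 19.4% among all 23251 with a count in the 6 libraries. Neither background asks for no count in the juveniles, as the list does, so the sets are not fully alike. Summed over the list, cleavage embryos had 233 ± 96.7 CPM (SD, n = 7), brown embryos 43.5 ± 29.7 CPM (n = 7), and each later phase before the juvenile a mean of 13.0 to 22.0 CPM, whereas adults had 1301 ± 542 CPM (n = 3). The lowest cleavage library, at 144 CPM, lay above every library of every later phase up to the juvenile, the highest of which had 103 CPM.

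This overlap with cleavage covered part of the list. Of the sum at cleavage, Aqu2.1.29233_001 gave a mean of 82.6 CPM and Aqu2.1.00991_001 gave 42.7 CPM. At cleavage 10 of the 29 reached a mean of 5 CPM, and 3 did so in some other phase. Another 6 stayed under 1 CPM in all 8 phases. Chamber- and tent-pole-formation, the phase just before the juvenile, had under 1 CPM for 24 of the 29. The least widespread gene model of the list had counts in 2 of the 116 libraries outside adults and juveniles, and the most widespread in 50. Cleavage and adult libraries come from different number sets, and stage and set cannot be told apart between them.

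Among all genes tested, those highest at cleavage were also the ones most often higher in adults. Of 864 tested gene models with their highest phase at cleavage, 75 were higher in adults (8.68%, against 2.61% of all tested) and 10 were lower (1.16%, against 1.17%). Next came cloud, spot and late spot, with 24 of 612 higher (3.92%) and 7 lower. In each of the other 6 phases 0.912% to 2.05% were higher in adults. Of the 230 genes higher in adults, 185 entered the test by their adult level alone. The shares called higher thus depend in part on the filter. This placing of every gene was added after the data were seen. In the stricter lists, which ask for a 2-fold lead over the second phase and 10 CPM, 16 of 250 tested cleavage genes were higher (6.40%) and 4 were lower. Their median log2 fold change was 0.15, beside 0.03 over all genes tested, and 141 of the 250 had a value above 0.

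Of 3315 gene models with a mean of at least 50 CPM over the 6 libraries, 2.59% were higher in adults, and of the 332 among them highest at cleavage, 20 were (6.02%). Among these abundant genes cloud, spot and late spot had nearly the same share, with 14 of 262 higher in adults (5.34%). For chamber- and tent-pole-formation the strict list held 544 tested genes, of which 9 were higher and 10 lower in adults (1.65% and 1.84%), with a median log2 fold change of -0.22. The strict lists of the brown, cloud to late spot, settlement and mat-formation phases held 4, 3, 1 and 1 genes higher and 2, 1, 3 and 4 lower in adults, out of 124, 201, 127 and 115 tested. The ring and larval lists, of 4 and 20 tested genes, held 0 called genes by edgeR, 1 and 6 at an unadjusted p under 0.05 and 1 each by DESeq2. Of all 8812 tested, 1468 had an unadjusted p under 0.05 in edgeR, and DESeq2 called 756. The 20 calls of the strict cleavage list became 9, 6 and 11 without juveniles 1, 2 and 3. The 19 of the strict chamber and tent-pole list became 66 without adult 2, 10 without adult 3, and 4, 5 and 5 without juveniles 1, 2 and 3. In the smaller lists every count of calls also moved by over 1.5 times without single libraries, apart from the ring list, which stayed at 0.

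**Figure D4:**
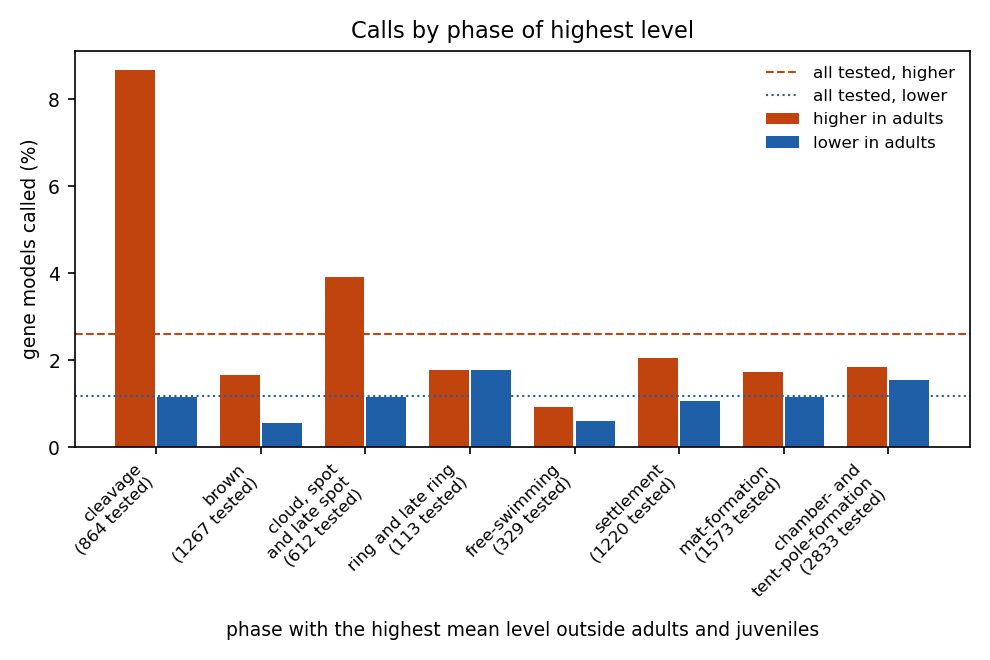
Bars give the percentage of tested gene models called higher (left of each pair) or lower (right) in adults than in juveniles, by the phase in which the gene model was highest outside these stages; the lines mark 2.61% and 1.17% over all tested. The cleavage bar for genes higher in adults, at 8.68%, stands above all others.

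Genes higher in adults often had neighbouring identifiers. Of the 230, 95 had a next identifier that was tested, and 29 of those next gene models (30.5%) were also higher in adults, against 2.61% of all tested, while 1 was lower. Of the 103 lower in adults, 63 had a tested next identifier, and 5 (7.94%) were also lower, against 1.17%. The files do not say whether identifiers follow the order of genes in the genome, and reads shared by similar or adjoining gene models could not be traced. In all 21 runs of consecutive identifiers held 50 of the 230 gene models.

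The longest of these runs held 6 gene models and made up over 1% of each adult library. Its summed level was 13075, 13677 and 14471 CPM in adults 1, 2 and 3, and 748, 2479 and 873 CPM in juveniles 1, 2 and 3. The adults were close to each other, and juvenile 2 was the highest juvenile. Single members had adult means of 415 to 4800.4 CPM and juvenile means of 4.09 to 777 CPM, with adjusted p from 0.00142 to 0.0443 (edgeR). Before the juvenile the sum was 473 CPM at cleavage and had means of 4.25 to 79.4 CPM in the other phases. The run was chosen after its values were seen.

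Single adults differed from each other more than single juveniles did by most measures used. Over the 8812 tested gene models, Spearman's rho was 0.807 between adults 1 and 3, 0.752 between adults 1 and 2 and 0.745 between adults 2 and 3. The 3 juvenile pairs lay between 0.864 and 0.875, and the 9 pairs of an adult and a juvenile between 0.685 and 0.739. Each adult was nearest to another adult, but adult 2 stood nearly as close to juvenile 1 (0.739) as to adult 3 (0.745). These correlations are across genes, which are not independent replicates, and pairs share libraries, so they carry no test. Thinned to equal depth the means were 0.765 for adult pairs and 0.865 for juvenile pairs.

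Counts of genes gave the same order. A 4-fold difference on CPM + 1, with at least 20 CPM at the high end, was found for 814, 510 and 817 gene models between adults 1 and 2, 1 and 3, and 2 and 3. It was found for 268 to 338 between juveniles, and for 832 to 1063 between an adult and a juvenile. Adult 2 and either other adult thus differed at nearly as many genes as the closest adult and juvenile did. The biological coefficient of variation from edgeR's common dispersion was 55.4% among the adults and 41.2% among the juveniles, beside 42.6% at chamber-formation and 46.7% at tent-pole-formation. A further measure, the chi-square per degree of freedom of a pair of libraries, did not separate the stages. It ran from 22.3 to 33.7 between adults and from 16.5 to 30.3 between juveniles, with means of 26.6 and 25.1.

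Adult 2 stood furthest from its stage. In adult 1, 178 gene models were at least 4-fold above both other adults and 85 at least 4-fold below. In adult 2 the numbers were 241 and 199, and in adult 3 they were 219 and 82. Juveniles 1, 2 and 3 had 72, 72 and 65 above and 25, 66 and 55 below. Every adult thus exceeded every juvenile in the 2 numbers together (263, 440 and 301 against 97, 138 and 120). The same measure gave 127 to 191 among tent-pole-formation and 94 to 167 among chamber-formation individuals. The numbers of the 3 animals of a stage depend on each other, since each is set against the other 2, so no p is given.

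**Figure D5:**
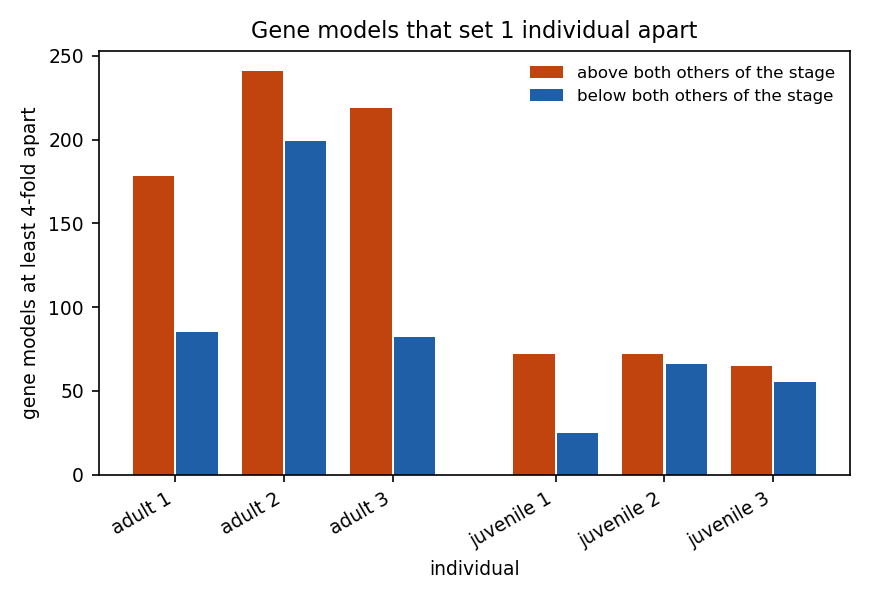
Bars count the gene models at least 4-fold above (left of each pair) or below (right) both other individuals of the same stage, for the 3 adults and the 3 juveniles. The adult bars for genes above run from 178 to 241 and the juvenile bars from 65 to 72, and adult 2 has the tallest pair.

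The genes that set a single adult apart were placed differently relative to the juveniles. The juveniles took no part in choosing these genes. For the 241 gene models high in adult 2, the mean log2(CPM + 1) was 6.47 in adult 2, 2.86 in the other adults, and 4.19, 3.89 and 3.70 in juveniles 1, 2 and 3. The juvenile mean was nearer to adult 2 for 99 of them (41.1%). For the 178 high in adult 1 it was nearer to adult 1 for 27 (15.2%), and for the 219 high in adult 3 it was nearer to adult 3 for 38 (17.4%). Juveniles thus lay nearer to the high adult more often for adult 2 than for adults 1 and 3, a difference of 1 animal from 2 that was not tested. Of the genes low in adults 1, 2 and 3, the juveniles were nearer to the low animal for 60.0% of 85, 46.2% of 199 and 46.3% of 82.

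By highest phase, the single-adult genes were set beside the 7486 gene models with at least 20 CPM in some adult. Of these, 17.7% were highest at mat-formation, 31.8% at chamber- and tent-pole-formation and 10.9% at cleavage. In adult 1 the shares of the 178 high genes were 18.5%, 32.0% and 14.6% in the same order, near those of all such genes. Of the 241 high in adult 2, 27 (11.2%) were highest at mat-formation, 111 (46.1%) at chamber- and tent-pole-formation and 37 (15.4%) at cleavage. Of the 219 high in adult 3, 65 (29.7%) were highest at mat-formation, 66 (30.1%) at chamber- and tent-pole-formation and 37 (16.9%) at cleavage. Adult 2 thus had a larger share of chamber and tent-pole genes and adult 3 of mat-formation genes, each in 1 animal and with no test. The high genes took 2.77%, 4.14% and 2.36% of the counts of their own adult.

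Gene models on in a single adult, with at least 10 counts there and none in the other adults, numbered 58, 32 and 44 in adults 1, 2 and 3, and 22, 27 and 27 in the juveniles by the same rule. Adult 1 had the deepest library. At equal depth the numbers were 27, 37 and 56 in the adults and 22, 22 and 24 in the juveniles, so that adult 1 no longer stood first. No count in any juvenile was found for 15, 9 and 10 of the gene models on in adults 1, 2 and 3 alone.

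The most abundant gene model of each such list had its own pattern. In adult 3 it was Aqu2.1.06748_001, with 117 CPM (127 counts) there and no count in the other 2 adults or in any juvenile. Its mean was at most 1.61 CPM in any earlier phase. A gene strong in this animal was therefore low in the rest of the series, with a count in 19 of the other 116 libraries.

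In adult 2 it was Aqu2.1.00322_001, with 215 CPM (228 counts) there, none in the other adults, and 34.5, 0.591 and 1.41 CPM in juveniles 1, 2 and 3. It was also uneven in other phases, with its 3 highest means at 54.4 ± 72.4 CPM in ring and late ring embryos (n = 14), 52.9 ± 62.7 CPM in larvae (n = 13) and 35.4 ± 53.1 CPM at chamber- and tent-pole-formation (n = 6). Means were 0.262 CPM at cleavage, 0.292 CPM in brown embryos, 7.93 CPM at cloud to late spot, 2.29 CPM at settlement and 3.64 CPM at mat-formation. The SD was larger than the mean in every phase before the juvenile except settlement, where it was 0.986 CPM.

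In adult 1 it was Aqu2.1.26922_001, with 43.7 CPM (80 counts) there, none in the other adults, and 20.5, 35.5 and 4.24 CPM in the juveniles. Its mean over the 3 adults, 14.6 ± 25.2 CPM, and over the 3 juveniles, 20.1 ± 15.6 CPM, differed by less than the spread within either stage, and the gene was not called (adjusted p = 0.945, edgeR).

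Single adults also differed within the genes common to all 3. Among the 230 gene models higher in adults, the highest adult was at least 4-fold above the lowest on CPM + 1 for 52, whereas among the 103 lower in adults the juveniles spanned 4-fold for 5. Both sets were chosen by a test that uses the spread within stages, so these numbers depend in part on that choice. Of the 230, 106 were highest in adult 1, 63 in adult 2 and 61 in adult 3. Of the 29 on only in adults, 12 lay within 2-fold over the 3 adults, 11 spanned at least 4-fold and 3 at least 10-fold. The widest was Aqu2.1.26526_001, chosen after its values were seen, with 10, 52 and 1036 counts in adults 1, 2 and 3 (5.46, 49.0 and 953 CPM), a span of 174-fold. It had no count in the juveniles and at most 5.18 CPM as the mean of any phase before them, and it did not pass the filter for testing.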

How the data were processed

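The authors deposited raw whole-number counts, 1 per gene model for every animal. The submitters' processing notes list the tools CASAVA 1.8, Bowtie2 2.1.0 and, for counting, HTSeq 0.5.4p3. Not given in the sources used here were genome build, annotation, strand setting and whether molecular identifiers were collapsed. The table was held only in part: it ends within its last line, and 36868 complete gene models were used. All 124 columns were matched to individuals by their names.

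Adults and juveniles were tested two-sided with edgeR 4.0.16 under R 4.3.3, by its quasi-likelihood fit after TMM scaling. Genes had to pass filterByExpr with 10 counts, and 15 counts in total. P-values were adjusted over all genes tested by the method of Benjamini and Hochberg. DESeq2 1.42.0 was the second tool. Nothing says how the animals of a stage are related, and p-values measure only the spread between these libraries. CPM is the count scaled to a library total of 1000000. Thinning, lists and exact permutation tests used Python 3.11.15 with pandas 2.3.3, numpy 2.4.6 and scipy 1.17.1. The test was checked on simulated counts with known changes in genes of at least 20 CPM. It recovered 1 of 67 genes changed 2-fold, 20 of 67 changed 4-fold and 57 of 66 changed 8-fold. Of 8213 unchanged genes, 0 were called. Most changes of 2-fold and 4-fold were thus missed in the simulation. It gave each gene the same dispersion in both stages, whereas the common dispersion was 0.307 in adults and 0.170 in juveniles. False calls under unequal spread were therefore not tested.

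Phase lists come from libraries that are neither adult nor juvenile. The named genes are the 2 called gene models of highest mean among those on in only 1 of the stages, and the most abundant one on in each single adult. The comparison and lists were chosen with earlier results of these data known. Alternatives covered scaling, filter, tool, block, depth, thresholds and left-out libraries. Other stages were used only as phases or for the same measures.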

Additional observations from a re-analysis of the deposited data

Results flagged for a closer look

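The 2 juveniles numbered 1 to 100, which entered the comparison only in the alternative with all 5 juveniles, held 12 counts of the gene models on only in adults among their 59547 counts, whereas the 3 deep juveniles held none. What drew attention was a signal in libraries outside the 6 compared. It came from 2 of the 29 gene models, with 10 counts of Aqu2.1.09988_001 in the library of 38188 counts and 2 of the other in the library of 21359 counts. That gene model had 46.9 CPM in the highest adult, against 262 CPM in this shallow juvenile (exact 95% Poisson interval 126 to 482 CPM, counting error only). The other 27 gene models had no count in any of the 5 juveniles.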

How the results depend on the processing

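The number of genes called moved by over 1.5 times with the filter and the tool. With no filter on low counts 1231 were called (870 higher and 361 lower in adults), and by DESeq2's Wald test 756 (515 and 241), which held 229 of the 230 and all 103 of edgeR's calls. With other scalings, equal depth, a 2-fold minimum, the 24-library fit or all 5 juveniles the total lay between 311 and 442. Without 1 library it ran from 58 to 541, with 38 to 353 higher and 20 to 188 lower. The cause was not tested, beyond that such a fit has fewer samples.

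With a replicate block, 1 block for each run of 8 embryo numbers, 192 genes were called (145 higher and 47 lower in adults), of which 128 and 44 were among the calls without it. The labels do not say that a run is a batch, and deviations of the adult and the juvenile of a run correlated at -0.0461, 0.00911 and 0.0835. Of the 3 juveniles, 1 correlated best with the adult of its own run. Whether a run marks a batch was not tested, and 3 pairs are too few to decide it. Under the block the calls of Aqu2.1.29362_001 and Aqu2.1.30840_001 were lost, with adjusted p of 0.0940 and 0.0989 in edgeR.

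The lists moved with their thresholds. Genes on only in adults numbered 44 and 10 at 5 and 20 counts, 54 with up to 1 count allowed in each juvenile, and 35 to 57 without 1 library. Genes on only in juveniles numbered 7 and 0 at 5 and 20 counts, 1 at 10 CPM, 1 at equal depth, 10 with up to 1 count allowed in each adult, and 3 to 8 without 1 library. Genes on in adults 1, 2 and 3 alone numbered 191, 85 and 138 at 5 counts, against 95, 120 and 95 in juveniles 1, 2 and 3. At 20 counts they numbered 18, 11 and 19 in the adults and 3, 11 and 9 in the juveniles, and with up to 1 count in the others 139, 55 and 86 in the adults and 43, 76 and 66 in the juveniles. At 5 counts adult 2 was below every juvenile, and at 20 counts and with 1 count allowed it was not above every juvenile. At equal depth adult 1 had 27 and was the lowest adult, where it is the highest without thinning.

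Genes 8-fold away from both others numbered 108, 160 and 114 in adults 1, 2 and 3, and 41, 62 and 56 in juveniles 1, 2 and 3. A pseudocount of 5 gave 184 in adult 3, 64 in juvenile 1 and 78 in juvenile 3. The difference in genes detected at equal depth was 645 to 1187 without 1 library.

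Calls within the phase lists were few and moved in most settings. By DESeq2 they numbered 37 of 250 tested for cleavage, 10 of 201 for cloud to late spot, 1 of 4 for ring and late ring and 1 of 20 for larvae. For settlement they numbered 15 of 127, for mat-formation 11 of 115 and for chamber- and tent-pole-formation 65 of 544. DESeq2 called 756 of all 8812 tested. Under a 4-fold lead they numbered 0 for brown, 2 for cloud to late spot, 1 for settlement, 1 for mat-formation and 8 for chamber- and tent-pole-formation. The numbers tested in the 4-fold lists are not given here, so these counts cannot be read as shares. With no lead, added after the data were seen, they numbered 85, 28, 31, 4, 5, 38, 45 and 96 from cleavage to chamber- and tent-pole-formation. The tested genes of these lists numbered 864, 1267, 612, 113, 329, 1220, 1573 and 2833, and edgeR called 333 of all 8812. Without 1 library they ran from 6 to 22, 0 to 5, 1 to 8, 0 to 0, 0 to 1, 0 to 6, 0 to 7 and 4 to 66 in the same order. The direction of the called totals and of the 4 named called genes did not change in the alternatives run, but the order of single animals by genes on alone did, as given above. The smallest called fold was 2.68 for genes higher and 2.19 for genes lower in adults, and a gene with no count in a stage could lie at up to 0.754 CPM in adults and 0.671 CPM in juveniles.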
